A study of Caenorhabditis elegans with 4 samples.

Results

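Peaks of trimethylated lysine 4 of histone H3 (H3K4me3) that lie within 1000 bp of another such peak were described in whole third-stage (L3) larvae of the wild-type Caenorhabditis elegans strain N2. A replicate 1 peak was taken as a close peak when the gap to the previous or the next peak on its chromosome was under 1000 bp, the gap being the number of bases between them. Ranges of gap lengths leave out their upper limit. This choice gave 896 close peaks of 4408 (20.3%, 95% Wilson interval 19.2 to 21.5%), in 476 adjacent pairs. The series holds 4 samples, which are 2 chromatin immunoprecipitation (ChIP) samples with an antibody against H3K4me3 and 2 input DNA samples. All share strain, stage and whole-body tissue, with no treatment or mutant, and data of the inputs were not analysed here. The peak lists of the ChIP replicates, of 4408 and 3280 peaks on the WormBase WS190 build, are the measurements used, and read depth is not known. Each peak has a start, an end and the authors' own score, whose scale is not named and which stops at about 3100, called the ceiling here. Whole larvae mix all tissues, so a pair of close peaks can come from the same cells or from different ones.

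H3K4me3 is laid down by SET1-type methyltransferase complexes and is known from nucleosomes around the start sites of transcribed genes. The nematode genome is compact, with operons, in which 1 promoter serves several genes, and with neighbouring genes that can start close together in opposite directions. Marked start regions of such neighbours can therefore lie near each other, and a peak caller can list such a stretch as 2 peaks or as 1. Genes were not assigned to peaks, since no annotation of the WS190 build was used here.

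Most close peaks came as simple pairs. There were 370 runs of 2 peaks, 44 runs of 3 and 6 runs of 4, or 420 runs in all. The 476 gaps under 1000 bp made up 10.8% of the 4402 gaps between neighbours, while the median of all gaps was 11197 bp (interquartile range 3484 to 27420 bp). Among the close pairs the median gap was 317 bp (133 to 604 bp). Libraries were cut from a gel at 250 to 500 bp per the labels, and 317 of the 476 gaps (66.6%) were shorter than 500 bp. The gap chose these peaks, so its values are a description and were not tested.

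Short gaps were more numerous than longer ones of the same range. Replicate 1 held 98 gaps under 100 bp, 70 from 100 to 200 bp, 60 from 200 to 300 bp, 52 from 300 to 400 bp and 37 from 400 to 500 bp. Beyond this the numbers levelled off, with 270 gaps from 1000 to 2000 bp and 247 from 2000 to 3000 bp. A formula for peaks spread at random over the free bases of each of 3 equal parts of a chromosome gave 227 gaps under 1000 bp, so the list held 2.10 times that number. The ratio was 4.21 under 100 bp, 2.75 under 500 bp, 1.42 from 500 to 1000 bp, 1.26 from 1000 to 2000 bp and 1.22 from 2000 to 3000 bp. In replicate 2, which did not enter the choice, 256 of 3274 gaps were under 1000 bp (7.82%), 2.07 times the 124 of the formula. There the ratio was 3.97 under 100 bp, 2.61 under 500 bp and 1.42 from 1000 to 2000 bp. The ratios thus fell with gap length in both lists. They compare with an even spread within each part, and genes, which are not spread evenly, were not used.

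**Figure D1:**
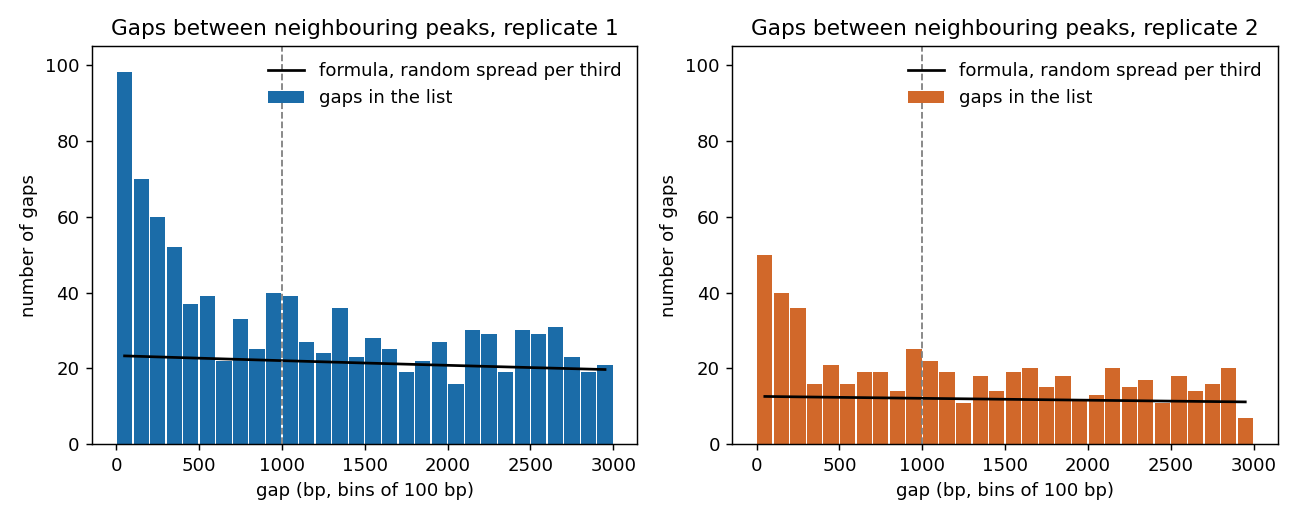
Number of gaps between neighbouring peaks by gap length, in bins of 100 bp up to 3000 bp, for replicates 1 and 2. Bars are gaps in the list, the line is the formula for a random spread, and the dashed line marks 1000 bp. The first bin holds 98 gaps in replicate 1 and 50 in replicate 2.

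The extremes of the gap range show what the lists hold at these sites. The smallest gap was 0 bp, on chromosome I, where a peak at 1699406 to 1700400 with a score of 184.8 was followed directly by one at 1700401 to 1702991 at the ceiling. Replicate 2 held a peak of 1215 bp across that border, with a score of 124.1, and a peak at the ceiling beyond it. The other 4 of the 5 smallest gaps were 2 or 3 bp. They lay on chromosome II (10521488 to 10523328, scores 69.7 and 488.2, and 1239310 to 1242916, scores 191.4 and 234.1), on III (9110011 to 9111408, scores 156.2 and 53.7) and on IV (9802802 to 9806133, scores 1303 and 231.6). None of these 4 had a peak of replicate 2 at either partner.

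At the other end, the 3 pairs just inside the threshold had gaps of 999, 998 and 995 bp. They were on chromosome IV (1495203 to 1498246, scores 3100 and 397.0), X (2237357 to 2243850, both 3100) and I (13625563 to 13629652, scores 2612 and 3100). Replicate 2 held 2 peaks at each, with gaps of 1046, 1198 and 796 bp. The 3 pairs just outside had gaps of 1001, 1006 and 1006 bp, on X (11513994 to 11519194, scores 152.6 and 628.6) and I (11516788 to 11520717, scores 3100 and 378.7, and 12039335 to 12044243, scores 3100 and 143.5). Of these, replicate 2 held both partners only at the first pair on I. There were 40 gaps in the last 100 bp below the threshold and 39 in the first 100 bp above it, so it does not fall at a break in the gap lengths.

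Close peaks had lower scores than the other peaks of replicate 1, at almost the same width. The median score was 426.5 (interquartile range 129.6 to 2458) for close peaks and 1131 (205.1 to 3100) for the other 3512. The ceiling was reached by 202 close peaks (22.5%) and 1112 others (31.7%), against 29.8% of the whole list. Scores under 300 were held by 378 close peaks (42.2%) and 1096 others (31.2%). Median widths were 1263 bp (903 to 1834 bp) and 1259 bp (940 to 1800 bp). In replicate 2 the 492 peaks chosen by the same rule (15.0% of its list) had a median score of 508.1 and a median width of 1495 bp, and its other peaks 717.4 and 1359 bp. Scores and widths come from the list that chose the peaks, so no test was made.

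Most close pairs were unequal. The higher-scoring partner had a median score of 1463 (352.0 to 3100) and the lower partner one of 144.1 (78.9 to 457.3). Both partners were at the ceiling in 36 pairs (7.56%), 1 was in 136 (28.6%), and neither was in 304 (63.9%). In 80 pairs (16.8%) a partner at the ceiling stood beside one scoring under 300, and in 94 pairs (19.7%) both scored under 300. Where neither was at the ceiling, the higher score was a median of 3.14 times the lower (1.69 to 5.93 times). The higher partner was also the wider in 342 of 440 pairs with unequal scores (77.7%), with medians of 1515 and 959 bp. It lay on the left, towards the start of the chromosome, in 227 of these 440 pairs (51.6%, 46.9 to 56.2%).

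Adjacent pairs in general were also unequal. Over all 4402 adjacent pairs, the median ratio of scores below the ceiling was 3.28, and the higher partner was the wider in 78.0% of pairs. Spearman's rho of the scores of left and right partner was 0.13 over the 476 close pairs, 0.14 over the 270 pairs with gaps of 1000 to 2000 bp and 0.05 over all adjacent pairs. These are descriptions of pairs from 1 library, some of which share a peak. Both partners scored under 300 in 19.7% of close pairs and 12.0% of all adjacent pairs, and the medians of the lower partner were 144.1 and 238.9. A partner at the ceiling stood beside one under 300 in 16.8% of close pairs and 18.9% of all adjacent pairs. Over all adjacent pairs, both partners were at the ceiling in 9.59%, 1 was in 40.4% and neither was in 50.0%.

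Within the close pairs, scores were highest in the class with the widest gaps and differed less between the other 2 classes. The median of the higher partner was 1203 in 98 pairs with gaps under 100 bp, 895.4 in 219 pairs with gaps of 100 to 500 bp and 2374 in 159 pairs with gaps of 500 to 1000 bp. The corresponding medians of the lower partner were 132.0, 123.1 and 216.6. From the outer edge of one partner to that of the other, the 3 groups measured a median of 2616, 2927 and 3711 bp. Over all close pairs this outer span had a median of 3165 bp (2414 to 4237 bp).

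Replicate 2 did not enter the choice of close peaks and was used to ask whether they were found again. A peak was called found when it overlapped a peak of the other list by at least 1 bp, which held for 66.9% of all replicate 1 peaks. Of the 896 close peaks, 513 were found (57.3%, 54.0 to 60.5%), and of the 3512 others 2435 (69.3%, 67.8 to 70.8%). The difference was −12.1 percentage points (95% Newcombe interval −15.7 to −8.5), larger than the counting error of peaks (Fisher's exact test, two-sided, p = 1.57e-11). Peaks of a run are not independent, and with 1 peak per run (420 peaks) the difference was −12.2 points (Fisher's exact test, p = 7.57e-07). When the rule was applied to replicate 2 and read in replicate 1, the difference was −2.97 points, 88.8% of 492 close peaks against 91.8% of 2788 others (Fisher's exact test, p = 0.0366).

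Since close peaks had lower scores, the difference was also compared at like score. Compared within 5 bands of replicate 1 score, the odds ratio of being found, close against other, was 0.878 (0.703 to 1.10) and did not pass an exact stratified test (two-sided p = 0.241). On the log2 scale this odds ratio was −0.19, and with 1 peak per run it was −0.43 (exact stratified test, p = 0.0525). The bands did not all go the same way. Under a score of 100, 20 of 170 close peaks (11.8%) and 34 of 413 others (8.23%) were found. From 100 to 300 the shares were 27.4% of 208 and 23.0% of 683. From 300 to 1000 they were 63.6% of 195 and 73.6% of 587, and from 1000 to the ceiling 92.6% of 121 and 98.0% of 717. In the band from 1000 to the ceiling the intervals, 86.5 to 96.0% and 96.7 to 98.8%, did not overlap. At the ceiling, 200 of 202 close peaks and 1109 of 1112 others were found. The share found was thus higher for close peaks in the lower 2 bands and lower in the upper 3, and the difference between bands was not tested. The interval of the pooled odds ratio includes both a lower and a slightly higher chance for close peaks.

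At the sites that were found, the overlapping peak of replicate 2 had a median score of 625.2 (154.3 to 2352) at close peaks and 989.9 (263.7 to 2597) at the others. It was at the ceiling for 17.3% of the 513 close peaks and 21.0% of the 2435 others, against 20.4% of all found peaks. This difference of −3.64 percentage points (−7.09 to 0.21) did not pass the test (Fisher's exact test, p = 0.0701). With gaps under 500 bp as the rule it was −7.86 points and passed (Fisher's exact test, p = 0.000464). With gaps under 2000 bp it was −3.36 points and also passed (Fisher's exact test, p = 0.0464). It did not pass among peaks scoring at least 300 (−1.60 points, Fisher's exact test, p = 0.680). Nor did it with 1 peak per run (−2.65 points, Fisher's exact test, p = 0.359). When replicate 2 chose the peaks, the sign turned. Scores of replicate 1 were not matched in this comparison.

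Each of the 476 close pairs was then read in replicate 2 as a pair. Replicate 2 called 2 separate peaks at 154 pairs (32.4%, 28.3 to 36.7%), joined 29 by a peak that touched both partners (6.09%, 4.28 to 8.61%), held 1 partner of 171 (35.9%, 31.7 to 40.3%) and neither partner of 122 (25.6%, 21.9 to 29.7%). In 8 of the 29 joined pairs a partner also met another peak of replicate 2, and with an overlap of at least 50% of the smaller peak 14 pairs were joined (2.94%, 1.76 to 4.88%). Over all 4402 adjacent pairs of replicate 1, the shares were 45.4% with 2 peaks, 0.704% joined, 41.5% with 1 partner and 12.4% with none. Close pairs were therefore more often joined and more often missing altogether than adjacent pairs as a whole. A joining peak has to cover the whole gap, and the median width of replicate 2 peaks was 1377 bp. A lower share joined at wider gaps is thus partly built in, and the tests of this share cannot separate that. Against the 270 pairs with gaps of 1000 to 2000 bp, of which 1 was joined (0.370%), the difference in the share joined was 5.72 percentage points (3.24 to 8.26, Fisher's exact test, p = 2.38e-05), and 2.57 points with the stricter overlap (Fisher's exact test, p = 0.0142). The share with 2 peaks was lower by 16.2 points, 32.4% against 48.5% (Fisher's exact test, p = 1.56e-05), and that with no partner was 25.6% against 14.4% (Fisher's exact test, p = 3.00e-04). The share with 1 partner was 35.9% against 36.7%, a difference of −0.74 points (−7.97 to 6.32, Fisher's exact test, p = 0.874).

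The score of the lower partner moved with these shares. Among close pairs whose lower partner scored under 100, 7 of 163 were called as 2 peaks in replicate 2 (4.29%), from 100 to 300 28 of 152 (18.4%), and from 300 to 1000 57 of 92 (62.0%). From 1000 to the ceiling 28 of 33 were (84.8%), and of the 36 pairs with both partners at the ceiling 34 were (94.4%). Pairs with gaps of 1000 to 2000 bp gave 7.04, 20.6, 71.0, 100 and 96.4% in the same bands. The share with no partner was 44.8, 27.0, 6.52, 6.06 and 0% in these bands for close pairs. For the wider pairs it was 35.2, 19.1, 1.61, 0 and 0%. This share was not tested within bands. The higher partner was not matched, and its median score was 1463 in close and 3019 in the wider pairs. Within these bands the difference in the share with 2 peaks was −4.58 points and no longer passed (exact stratified test, p = 0.0570). The share joined was 5.82 points higher (exact stratified test, p = 4.10e-05). Bands of score leave the gap to be covered as it is, so this test cannot separate what the gap builds in either.

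Joining went with the length of the gap, which the joining peak has to cover. Replicate 2 joined 23 of the 98 pairs with gaps under 100 bp (23.5%, 16.2 to 32.8%), 3 of 94 with gaps of 100 to 250 bp, 3 of 125 with gaps of 250 to 500 bp and 0 of 159 with gaps of 500 to 1000 bp, a count that allows a share of up to 1.89% if 3 pairs are taken as the limit and up to 2.36% by the Wilson interval. The share called as 2 peaks went from 18.4% under 100 bp to 33.0, 32.8 and 40.3% in the wider classes. The share with no partner was nearly the same in all 4, between 24.5 and 27.7%. The 29 joined pairs had a median gap of 46 bp, a median higher score of 2414 and a median lower score of 135.2. The joining peak was a median of 2421 bp wide, narrower than the outer span of the pair in 20 of 29, and was at the ceiling in 5.

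**Figure D2:**
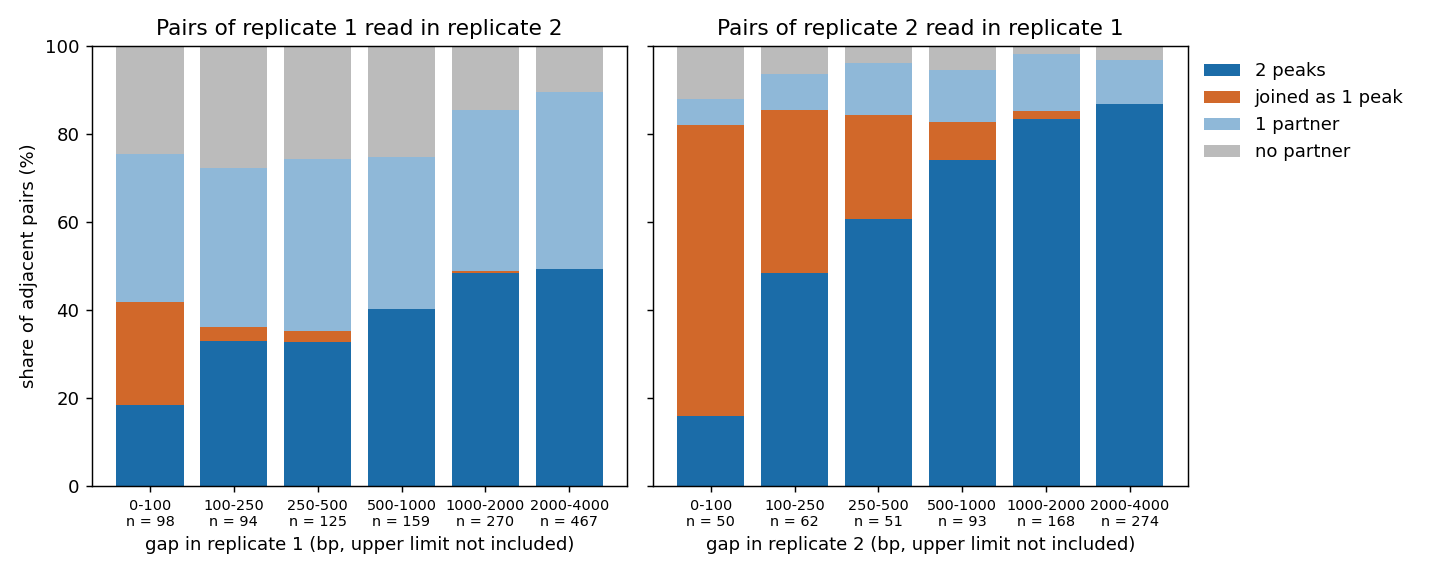
State of adjacent pairs in the other list by gap length, as a share of pairs in percent, with the number of pairs under each bar. The left panel reads pairs of replicate 1 in replicate 2 and the right panel the reverse. In the right panel 66.0% of pairs with gaps under 100 bp were joined, against 23.5% in the left.

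In the joined pairs with the widest gaps, 1 partner scored far above the other. On chromosome I, peaks at 4913605 to 4914735 and 4915235 to 4916392 scored 650.1 and 93.7 and were 499 bp apart. Replicate 2 covered the gap with a peak of 1729 bp and a score of 184.5, which ended at 4915338, just inside the second partner. On X, peaks at 12876712 to 12878214 and 12878684 to 12879475 scored 3222 and 68.4 across 469 bp, and replicate 2 held 1 peak of 3223 bp with a score of 1547. The pair at 7700731 to 7702934 on chromosome I, 338 bp apart with scores of 1027 and 129.2, was met by a peak of 1376 bp with a score of 458.3. On X the weaker partner of replicate 1 lay within the single peak of replicate 2. In both pairs on chromosome I that peak ended just inside the weaker partner, most of which lay outside it.

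Where replicate 2 held 1 partner, it was nearly always the stronger. The found partner was the higher-scoring one of replicate 1 in 160 of 170 pairs with unequal scores (94.1%, 89.5 to 96.8%, exact two-sided binomial test, p = 6.04e-36). The same held for 94.5% of all adjacent pairs with 1 partner found, so this was not particular to close pairs. The found partners had a median score of 1622 and the missing ones 112.4, and 141 of the 171 missing partners scored under 300. The replicate 2 peak ended a median of 445 bp from the missing partner (240 to 781 bp), while the gap itself had a median of 317 bp. In the 122 pairs with no partner found, the median scores were 232.1 and 84.0, and both were under 300 in 73.

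**Figure D3:**
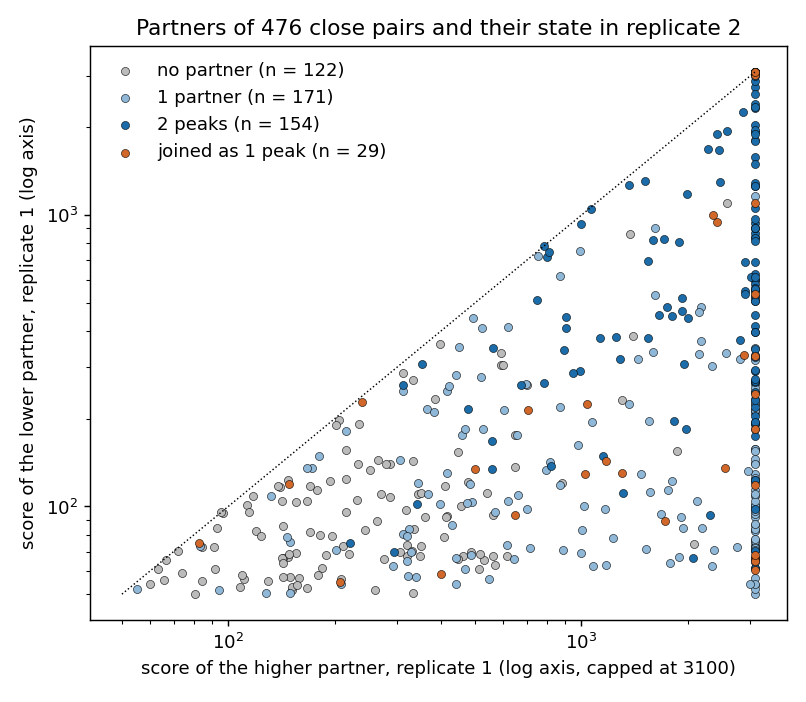
Score of the lower partner against that of the higher partner in replicate 1 for the 476 close pairs, both on log axes and capped at 3100, coloured by the state of the pair in replicate 2. Pairs called as 2 peaks lie mostly at high values of both scores, and pairs with no partner at low values of both.

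A few strong pairs were missing in part or whole. On X, the pair at 14577682 to 14580978 and 14581270 to 14584691 reached the ceiling at both partners, with scores of 3128 and 3100 and a gap of 291 bp. Replicate 2 held nothing at the first partner and a peak at 14582874 to 14584291 with a score of 67.2 at the second. On chromosome IV, peaks at 14090290 to 14092908 and 14093025 to 14096540 scored 1815 and 3100 across 116 bp, and replicate 2 held no peak at either. On chromosome III, the pair at 8129120 to 8131508 and 8132408 to 8135865 scored 3100 and 1167. There replicate 2 was at the ceiling at the first partner and had no peak at the second. Of these 6 partners, 4 were in the upper 2 score bands of replicate 1 and had no counterpart.

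At 148 of the 154 pairs called as 2 peaks, replicate 2 held exactly 1 peak at each partner. At the other 6, a partner met 2 or more peaks of replicate 2, and the gap was then taken to the nearest of these and the score from the highest. The 154 pairs had higher scores than close pairs as a whole, with medians of 3100 for the higher and 731.9 for the lower partner in replicate 1. In replicate 2 these medians were 2260 and 197.3. The partner with the higher score in replicate 1 was also the higher in replicate 2 in 111 of the 120 pairs without a tie (92.5%, 86.4 to 96.0%, exact two-sided binomial test, p = 1.71e-23). It was so in 91.5% of all adjacent pairs called as 2 peaks, and in 90 of 104 pairs with gaps of 1000 to 2000 bp (86.5%). The difference between these and close pairs did not pass the test (Fisher's exact test, p = 0.186). The order of partners was thus mostly the same in both lists, in close pairs as in other adjacent pairs.

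The gap chose these pairs in replicate 1, so its values in the lists are a description. Its median in these 154 pairs was 364 bp (181 to 743 bp) in replicate 1 and 577 bp (257 to 930 bp) in replicate 2, and it was wider in replicate 2 in 109 of the 153 pairs in which it differed. The median change was 70 bp, and in 76 pairs the gaps lay within 100 bp of each other. In 25 pairs the gap was wider in replicate 2 by more than 500 bp, and in 1 pair it was narrower by as much. In 121 pairs the gap was under 1000 bp in both lists, and over the 154 pairs it ranged from 21 to 2725 bp in replicate 2. Spearman's rho of the gaps was 0.58 and Pearson's r 0.33 across these pairs, which were chosen for a short gap in replicate 1. Chosen instead in replicate 2, the 138 pairs called as 2 peaks in both had a median gap of 503 bp there and 463 bp in replicate 1, with 61 of 137 wider in replicate 1 and a median change of −8.5 bp from replicate 2 to replicate 1. Of those, 12 were wider in replicate 1 by more than 500 bp and 4 narrower. Large changes thus mostly went towards a wider gap in the list that had not chosen the pairs. A gap under 500 bp cannot narrow by more than 500 bp, and the choosing list held only gaps under 1000 bp. This direction is therefore in part set by the choice of pairs.

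**Figure D4:**
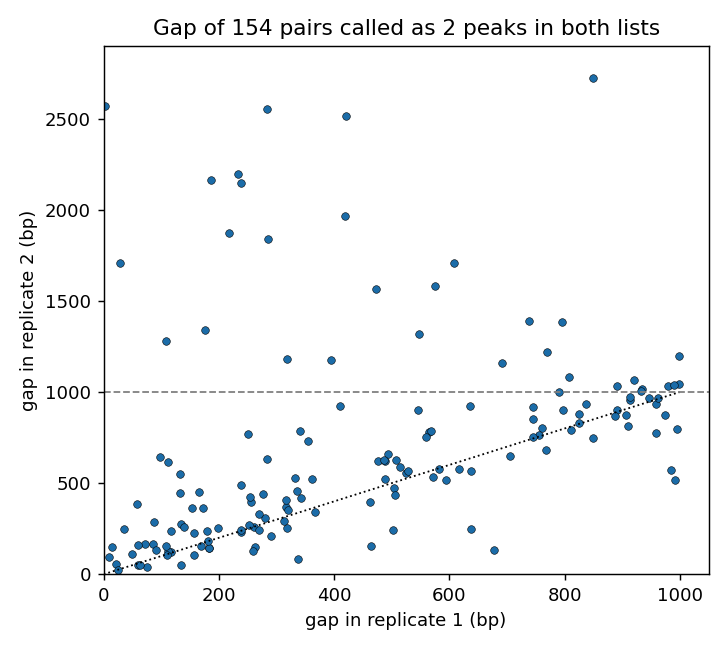
Gap in replicate 2 against gap in replicate 1, in bp, for the 154 close pairs called as 2 peaks in both lists. The dotted line marks equal gaps and the dashed line 1000 bp, with 33 pairs at or above it.

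On each chromosome, 1 pair with separate peaks in both lists is named, at the ceiling at both partners in replicate 1. In replicate 1, 34 pairs called as 2 peaks in replicate 2 were at the ceiling at both partners. The named pairs were picked so that replicate 2 also held a peak at the ceiling at each partner, so that level is no result. On chromosome I the pair was a broad peak of 8842 bp at 7079719 to 7088560, followed after 421 bp by a peak of 2356 bp. Its gap was 2514 bp in replicate 2. On II the partners lay at 11235576 to 11237029 and 11237646 to 11240237, with gaps of 616 and 575 bp in replicates 1 and 2. On III they lay at 11915035 to 11916634 and 11917313 to 11922319, with a gap of 678 bp. Replicate 2 split the second of these, so that the site held 3 peaks there, at the ceiling from 11914944 to 11916635, with a score of 1190 from 11916768 to 11918865, and at the ceiling from 11918894 to 11922249, with gaps of 132 and 28 bp. On IV a pair at 1009068 to 1013795 had gaps of 755 and 763 bp, and on V one at 1867854 to 1873200 had gaps of 910 and 811 bp. That of X was the pair at 2237357 to 2243850, with gaps of 998 and 1198 bp. Of the 6 pairs, 3 had gaps that differed by under 100 bp between the lists.

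The 6 runs of 4 peaks were mostly weak, and in none were all 4 peaks found in replicate 2. On chromosome I (1267087 to 1273060) the peaks scored 416.2, 248.7, 311.9 and 260.5, and replicate 2 held 3 of them with scores of 130.8, 66.2 and 72.2. On II (1233219 to 1247172) peaks of 5476 and 4124 bp at the ceiling stood at either side of 2 weak ones with scores of 191.4 and 234.1. Replicate 2 held only the outer peaks, with scores of 1662 and 625.2. A run on III at 5834399 to 5841348 had its first peak found (869.6 in replicate 1, 128.3 in replicate 2). Another on III at 9629083 to 9634931 had its first 2 peaks found, with scores of 1959 and 3100 in replicate 1 and 860.0 and 1412 in replicate 2. Both runs on X had scores of at most 660.1. That at 5116655 to 5123091 had its strongest peak found, with 660.1 in replicate 1 and 63.3 in replicate 2, and that at 10637728 to 10643003 had none.

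The reverse reading, from replicate 2 to replicate 1, gave other shares. Of the 256 close pairs of replicate 2, replicate 1 called 138 as 2 peaks (53.9%, 47.8 to 59.9%), joined 76 (29.7%, 24.4 to 35.6%), held 1 partner of 25 (9.77%) and neither of 17 (6.64%). Replicate 1 holds 1.34 times as many peaks, and 91.3% of all replicate 2 peaks were found there. Joining was again bound to the gap, with 33 of 50 pairs under 100 bp (66.0%), 23 of 62 from 100 to 250 bp (37.1%), 12 of 51 from 250 to 500 bp (23.5%) and 8 of 93 from 500 to 1000 bp (8.60%). The joining peak of replicate 1 was at the ceiling in 46 of 76 and had a median width of 3719 bp. The 3 pairs with the widest gaps among these lay on V at 10201979 to 10205745 (gap 991 bp, scores 50.0 and 919.6) and 4628407 to 4632381 (979 bp, 322.0 and 116.7) and on I at 8759101 to 8763101 (947 bp, 3208 and 133.4). In replicate 1 they were single peaks of 4183, 3814 and 4146 bp, with scores of 3100, 1618 and 3100. The share joined was thus 29.7% when replicate 2 chose the pairs and 6.09% when replicate 1 did. These shares include pairs with a partner missing from the other list, which were more frequent when replicate 1 chose. Of pairs with both partners found, 76 of 214 (35.5%, 29.4 to 42.1%) and 29 of 183 (15.8%, 11.3 to 21.8%) were joined. The lists share most of their sites, so this difference was not tested.

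Close peaks were present on all chromosomes in replicate 1, with the lowest share on X. They made up 23.0% of the peaks on chromosome III (186 peaks), 22.3% on II (163), 21.8% on I (181), 21.2% on IV (145), 17.3% on V (113) and 15.5% on X (108). The intervals of neighbours in this order overlapped, while that of X (13.0 to 18.3%) lay below those of III, II and I, the lowest bound of which was 19.2%. Per Mb there were 13.5 close peaks on III, 12.0 on I, 10.7 on II, 8.30 on IV, 6.12 on X and 5.42 on V. In replicate 2 the shares were 18.2% on III, 17.1% on IV, 16.8% on I, 14.9% on V and 14.3% on II, and 6.31% on X (28 of 444 peaks).

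X thus had the lowest share of close peaks in both lists, though in replicate 1 it held more of them per Mb (6.12) than V (5.42). Since X had the lowest share in replicate 1, it was compared in replicate 2 by gaps. There, 15 of 443 gaps on X were under 1000 bp (3.39%, 2.06 to 5.51%), against 241 of 2831 on autosomes (8.51%, 7.54 to 9.60%, Fisher's exact test, two-sided, p = 5.78e-05). Peak density moved with this value, since replicate 2 held 25.2 peaks per Mb on X and 30.0 to 44.2 on chromosomes I to IV. Chromosome V, with 24.7 peaks per Mb, had 40 of 515 gaps under 1000 bp (7.77%, 5.76 to 10.4%), more than X (Fisher's exact test, p = 0.00492). This pair of tests was chosen after the values were seen, with no adjustment. In replicate 1, 58 of 698 gaps on X (8.31%) and 59 of 652 on V (9.05%) were under 1000 bp, and their intervals (6.48 to 10.6% and 7.08 to 11.5%) overlapped. Of the 58 close pairs of replicate 1 on X, replicate 2 called 8 as 2 peaks (13.8%, 7.16 to 24.9%) and held neither partner of 24 (41.4%). On autosomes these shares were 34.9% and 23.4% of 418 pairs. Replicate 2 held fewer peaks on X in general, 444 against 699 in replicate 1, while the autosomes held 2836 and 3709. Shares over all adjacent pairs of X were not computed, so whether the low shares are particular to close pairs was not tested.

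**Figure D5:**
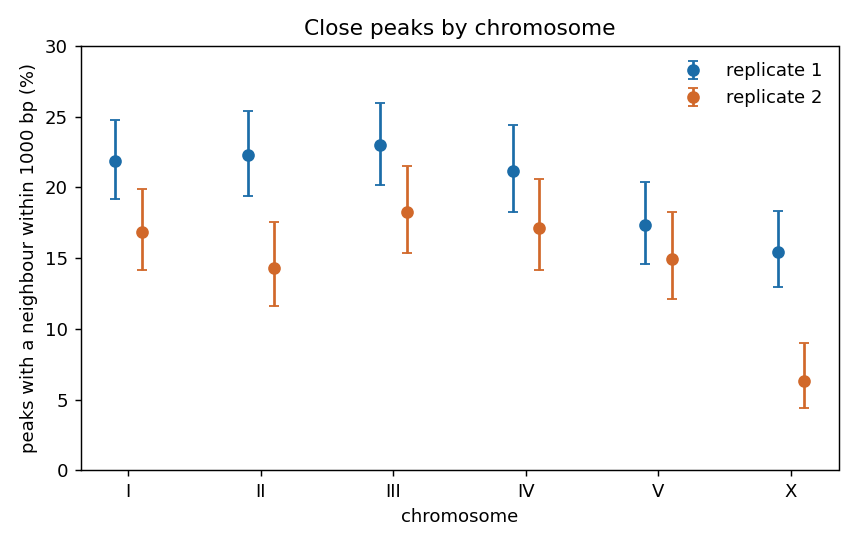
Share of peaks with a neighbour within 1000 bp on each chromosome, in percent, with 95% Wilson intervals, for replicates 1 and 2. On X the share was 15.5% in replicate 1 and 6.31% in replicate 2.

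Along the chromosomes, close peaks of replicate 1 followed the peaks as a whole. The centre, the middle of 3 equal parts of each chromosome, held 41.3% of close peaks (38.1 to 44.5%) and 42.7% of the others (41.1 to 44.4%). In replicate 2 the centre held 33.7% of close peaks (29.7 to 38.0%) and 41.9% of the others (40.0 to 43.7%). As a share of all peaks in a part, close peaks of replicate 2 made up 16.2% on the left, 12.5% in the centre and 17.2% on the right, against 19.9, 19.8 and 21.6% in replicate 1. The share in the centre was thus lower than in the outer parts in replicate 2, while in replicate 1 the parts differed little, and the difference between the lists was not tested.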

How the data were processed

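The submitters' processing notes list the aligner BWA with no version. Peak names point to MACS and the source column to MA2C, so which of these callers was used is unclear. Peaks were called per sample by the authors on WS190, per the file headers. As deposited, a list gives other values (peak start and end, in bp) and a score for every peak on a scale that is not named. Scores above 3100 were treated as tied at 3100. No depth, filter or caller threshold is stated in the sources used, so the peak numbers limit precision, intervals cover counting error only, and a missing peak is no evidence that the mark was absent.

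Members, lists and tests were chosen with earlier results of these data known. Peaks were sorted by start, and gaps are next start − this end − 1. A pair was joined when a peak of the other list overlapped both partners, and called as 2 peaks when different peaks did, each partner meeting 1 or more. Chromosome lengths were taken as the end of the last peak in either list. The formula for a random spread uses uniform spacings over the bases free of peaks, with no p. Shares have 95% Wilson intervals and differences Newcombe intervals. Fisher's exact test compared shares, and within score bands (edges 100, 300, 1000 and the ceiling) an exact conditional stratified test was used, with a Mantel-Haenszel odds ratio, all two-sided with a threshold of 0.05. Order was tested by an exact binomial test. The test of the single found partner and those of X were added after the data were seen, and no p was adjusted. Functions were tested on simulated data. Python 3.11.15, SciPy 1.17.1, pandas 2.3.3 and statsmodels 0.14.6 were used. Nothing in the labels says that the replicates came from separate cultures, and peaks of 2 samples are not replicates, so p-values measure the spread among peaks alone. Named pairs were those with the 5 smallest gaps, the 3 on either side of 1000 bp and the runs of 4. Also named was a pair of each chromosome called as 2 peaks and at the ceiling in both lists. The 3 widest-gapped joined pairs of each reading and the 3 strongest pairs with 1 or no partner completed the list. Alternatives were gaps under 500 or 2000 bp, scores of at least 300, overlap of at least 50% of the smaller peak, 1 peak per run, runs of exactly 2 peaks, and the rule applied to replicate 2.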

Additional observations from a re-analysis of the deposited data

How the results depend on the processing

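The 7 results were recomputed under 42 alternatives in all. In 34 of these, the direction and the side of the threshold were as before or, for the number of close peaks, the value was within 1.5 times. The number of close peaks moved from 896 to 1352 with gaps under 2000 bp, to 315 among peaks scoring at least 300 and to 492 when the rule was applied to replicate 2. Within score bands, the log2 odds ratio of being found was −0.19 and turned to 0.17 with gaps under 500 bp, neither passing the test (exact stratified p = 0.241 and 0.349). The difference in the share at the ceiling in the other list, −3.64 points, passed at −7.86 points with gaps under 500 bp and at −3.36 points with gaps under 2000 bp, and it turned to 5.23 points when replicate 2 chose the peaks (Fisher's exact test, p = 0.0481). The deficit of pairs called as 2 peaks, −16.2 points, was −4.58 points within bands of the lower partner's score, an alternative added after the data were seen, and no longer passed. The difference in the share found was −2.97 points when replicate 2 chose the peaks, against −12.1, and the share joined was 2.94% with the stricter overlap, against 6.09%. The causes were not tested. The share joined as 1 peak was higher in close pairs in all 7 alternatives (2.57 to 27.9 points). A wider gap is harder for 1 peak to cover in each of them, so this direction is partly built in. The order of partners was kept in 89.7 to 92.9%. Leaving out replicate 2 leaves the number of close peaks as it is and gives no value for the others. No paired analysis was possible because both ChIP samples form 1 group, with no second group to pair. Unknown depth limits what a missing partner shows.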
